A study of Sus scrofa with 12 samples.

Results

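The 7 subunits of respiratory complex I that the mitochondrial genome encodes, ND1, ND2, ND3, ND4L, ND4, ND5 and ND6, were followed in pig (Sus scrofa) blastocysts. They were chosen by name, as the complete set, with earlier results of these data known. Each symbol matched 1 of the 31781 Ensembl identifiers in the expression table, so the members are 7 of 31781 genes, and all 7 passed the filter on low values given below. All embryos, the fresh ones included, were parthenogenetic blastocysts, in which an egg is activated without sperm. The groups are a fresh control (label Control, design letter A; 3 libraries) and embryos cooled by vitrification under the labels Vitrification (B; 2 libraries used of 3 listed), Vitrification I (C; 3 libraries) and Vitrification II (H; 3 libraries). Strain, embryo age and what set the 3 vitrification procedures apart are not in the labels. Liquid helium stands in the series title and is tied there to no group. Libraries were made with Smart-Seq2, which copies RNA from an oligo-dT primer and amplifies it, and the protocol speaks of sorted single cells where the labels name blastocysts as the source.

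Complex I takes electrons from NADH, passes them to ubiquinone and pumps protons across the inner mitochondrial membrane. Its membrane arm is built around the 7 ND proteins, of which ND2, ND4 and ND5 are the antiporter-like proton pumping units, while ND1, ND3, ND4L and ND6 sit towards the joint with the arm that takes up electrons. Their genes are read as parts of long transcripts that are cut at the tRNAs between them. ND4L and ND4 stay together on 1 mRNA, and ND6 alone among the mRNAs is encoded on the other strand. In human mitochondria ND6 mRNA largely lacks the poly(A) tail that the others carry. In the mouse, oxidative metabolism rises at the blastocyst stage, above all in its outer layer, the trophectoderm.

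Values are FPKM, fragments scaled for gene length and for the mapped fragments of the library. Levels of different genes are compared below as FPKM, which for short genes such as ND4L and ND3 depends on how fragment length was corrected for. No counts are in the table, so the depth behind each value is unknown. The libraries summed to between 439650.4 and 591894 FPKM, with 11550.0 to 18527 genes above 0. The 13 mitochondrial mRNAs held 37.6 to 43.9% of the summed FPKM among controls, 38.7 to 51.8% with vitrification, 43.8 to 64.3% with vitrification I and 16.9 to 22.1% with vitrification II. Vitrification I replicate 2, at 43.8%, stood apart from the other libraries of its group. The changes that involve vitrification I are also given without it. Trophectoderm markers were present (8 of 8 reached 1 FPKM in at least 3 libraries), and their summed level was 10259 to 15267 FPKM among controls, 6411 to 16821 with vitrification, 2307 to 5588 with vitrification I and 13372 to 21737 with vitrification II. The 3 epiblast markers with an identifier (of 5 listed) summed to 8.71 to 11.5, 4.78 to 10.8, 0.328 to 4.75 and 35.5 to 87.9 FPKM, and POU5F1 and SOX2 had no identifier of that symbol. Of the 3 hypoblast markers with an identifier (of 4 listed) 2 reached 1 FPKM in at least 3 libraries, and they summed to 10.6 to 19.3, 18.3 to 45.1, 16.4 to 23.3 and 19.0 to 26.5. The 4 cumulus and granulosa markers with an identifier (of 7 listed) were near 0 in all libraries, with PTX3 at 0 throughout and a highest sum of 0.205. Of the leukocyte and erythroid markers, PTPRC and ALAS2 were at 0 in every library, and of the maternal oocyte markers ZP3 was. In each of these lists 1 gene reached 1 FPKM in at least 3 libraries. From controls to vitrification II in the order above, leukocyte markers summed to 0.758 to 12.7, 0.728 to 1.73, 0.0211 to 1.48 and 0.717 to 2.83 FPKM. Erythroid markers summed to at most 2.92, 10.4, 2.22 and 2.08. Oocyte markers summed to 6.26 to 7.67, 5.38 to 5.96, 3.85 to 6.54 and 3.98 to 13.4. The part of these markers in the results below was not tested. A change in the number of cells or mitochondria and a change in RNA per cell cannot be told apart in these libraries.

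Differences between groups are given on the log2(FPKM + 1) scale, with the SE from limma, a linear model with a shared prior for the spread, fitted to 9411 genes with at least 1 FPKM in at least 3 libraries. A gene was called at a Benjamini-Hochberg adjusted p under 0.05 over all 9411 genes. Levels are mean ± SD over the libraries of a group. All p-values measure the scatter of the libraries within groups, and nothing in the labels says that this is more than technical. Comparisons with fresh control share the same 3 control libraries. Alternatives named below are scaling to the total outside the mitochondrial genome (nuclear scaling), scaling to the summed mitochondrial mRNAs (mitochondrial scaling), quantile normalization, array weights, a pseudocount of 0.1, no filter and fits on the 2 groups compared. The median change of all genes against fresh control was 0.19 with vitrification, -0.064 with vitrification I and 0.62 with vitrification II. Nuclear scaling moved these medians to 0.38, 0.26 and 0.50, and mitochondrial scaling to 0.15, -0.29 and 1.72. Where a call is said to end without several libraries, each was left out alone, and libraries go by their replicate number.

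In fresh control the members fell into a steep order of levels. ND4L was highest at 30302 ± 5867 FPKM (n = 3), followed by ND4 at 14877 ± 4741 and ND1 at 6708 ± 1667. These 3 did not overlap between neighbours in any of the control libraries. ND3 stood at 5212 ± 978, ND2 at 4920.3 ± 1573, ND6 at 3402 ± 158 and ND5 at 3162 ± 726, and from ND1 downwards each neighbour overlapped the next. Within a control library the highest member exceeded the lowest by 14.1, 8.20 and 8.80 times. ND4L and ND4 kept the first and second place and ND1 the third in the group means of all 4 groups. ND4L and ND4 overlapped in vitrification I, and ND4 and ND1 in vitrification. The lower places changed. ND5, last in fresh control, came next after ND1 in vitrification at 5338 ± 559 (n = 2), where all neighbours from ND4 down overlapped. In vitrification I it was last again at 2116 ± 139 (n = 3), below every library of ND3. ND2 was last in vitrification at 3068 ± 622. In vitrification II, ND6 was last at 1587 ± 225, below every library of ND3, and ND2, ND5 and ND3 above it overlapped.

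**Figure D1:**
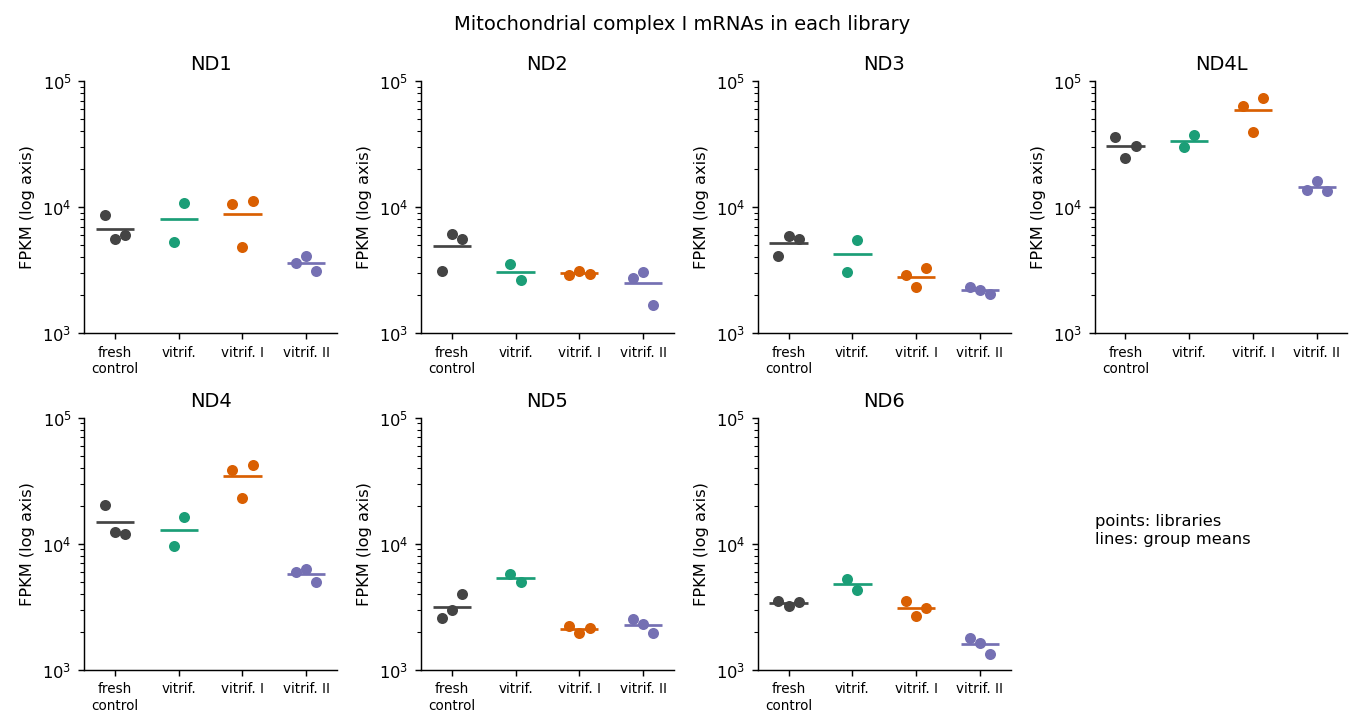
FPKM of each member (log axis) in every library by group, with lines at group means (3 libraries each, 2 in vitrification). ND4L and ND4 are highest in vitrification I, where ND4 reached 42097 FPKM, while all 7 members lie lower in vitrification II than in fresh control; under mitochondrial scaling 6 of these 7 differences change sign, and that of ND4L does under quantile normalization.

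ND4, one of the pumping subunits, had the largest ratio of the members between its highest and lowest group means, although ND4L spanned more FPKM. Its FPKM was 20344, 12388 and 11900.2 among controls, 9581 and 16325 with vitrification, 38564, 23017 and 42097 with vitrification I and 5970.0, 6326 and 4928 with vitrification II. All vitrification I libraries lay above all others, and all vitrification II libraries below all others. ND4L, the small membrane subunit read from the same mRNA, was at 36075, 24345 and 30487 in fresh control and 29747 and 37463 in vitrification. It stood at 63892, 39703 and 73935 in vitrification I and 13723, 16175 and 13288 in vitrification II. As with ND4, all vitrification I libraries lay above and all vitrification II libraries below all others, while vitrification and fresh control overlapped. Vitrification I replicate 2 was the lowest library of its group for both. ND4L and ND4 overlap at their ends, and how the authors' counting shared reads between them is not given in the sources used here.

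ND1, which forms much of the ubiquinone channel, had FPKM of 8620.0, 5556 and 5949 in fresh control and 5314 and 10802 in vitrification. Vitrification I gave 10536, 4856 and 11080.4 and vitrification II 3583, 4106 and 3097. The first 3 groups overlapped, with vitrification I replicate 2 far below the other libraries of its group, and vitrification II lay below all of them. ND2, a pumping subunit encoded next to ND1 with tRNA genes between, gave 3127, 6064 and 5570.4 in fresh control and 3508 and 2628 in vitrification. It gave 2864, 3102 and 2957 in vitrification I, the closest values of any member in any group, and 2736, 3026 and 1665 in vitrification II. Control 1 lay among the vitrification values and well under the other control libraries. ND3, whose loop at the joint of the 2 arms moves with the state of the enzyme, had 4097, 5924 and 5615 in fresh control and 3037 and 5448 in vitrification. In vitrification I it had 2868, 2300.1 and 3252, and in vitrification II 2325, 2183 and 2029, both below every control library.

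ND5, the pumping subunit at the far end of the membrane arm, gave 2551, 2969 and 3965 in fresh control and 5733 and 4943 in vitrification. It gave 2229.7, 1962 and 2158 in vitrification I and 2510.4, 2326 and 1945 in vitrification II. It was the only member with every vitrification library above, and every vitrification I and vitrification II library below, all control libraries. ND6, the subunit encoded on the other strand, whose gene meets ND5 end to end with an overlap, had 3519.6, 3222 and 3464 in fresh control and 5258 and 4261 in vitrification. Vitrification I had 3483, 2659 and 3066, overlapping the controls, and vitrification II 1780.0, 1642 and 1339, below all other libraries. The labels do not say that the libraries keep the strand, so for ND6 reads of the gene and of transcripts opposite to it cannot be told apart.

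Vitrification without a numeral was set against fresh control first. ND5 and ND6 had higher values in both vitrification libraries than in any control, and no member passed the test. Limma called 0 of the 7 members, against a background of 1.37% of 9411 genes called, and 1 member, ND5, had an unadjusted p under 0.05. ND5 differed by 0.78 ± 0.33 (adjusted p = 0.217) and ND6 by 0.48 ± 0.32 (adjusted p = 0.464), both without overlap between the groups. Such a lack of overlap was seen for 37.0% of all genes, since 2 libraries face 3. ND2 differed by -0.64 ± 0.38 (adjusted p = 0.410), ND3 by -0.34 ± 0.35 (adjusted p = 0.660) and ND4 by -0.21 ± 0.39 (adjusted p = 0.828), and ND1 and ND4L by 0.20 ± 0.43 (adjusted p = 0.850) and 0.16 ± 0.35 (adjusted p = 0.857), all with overlap. ND4 was at 0.058 under nuclear scaling and 0.025 with array weights, so no direction is given for it.

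In vitrification I against fresh control, ND4 rose 2.32-fold and ND4L 1.95-fold in mean FPKM, while ND2, ND3 and ND5 had lower values and did not pass the test. The log2 change was 1.21 ± 0.35 (adjusted p = 0.0247) for ND4 and 0.94 ± 0.31 (adjusted p = 0.0474) for ND4L. So 2 of 7 members were called, both higher, where 18.6% of all genes were called and 8.85% were called higher. ND3 differed by -0.89 ± 0.32 (adjusted p = 0.0628), ND2 by -0.67 ± 0.34 (adjusted p = 0.186) and ND5 by -0.56 ± 0.29 (adjusted p = 0.198). For these 3 every vitrification I library lay below every control library, and with ND4 and ND4L that makes 5 of 7 members without overlap, against 36.2% of all genes. ND6 and ND1 overlapped, at -0.16 ± 0.28 (adjusted p = 0.747) and 0.33 ± 0.38 (adjusted p = 0.581). Under nuclear scaling ND4 was at 1.71 (adjusted p = 0.00534), ND4L at 1.43 (0.00618) and ND6 at 0.34 (0.378), the opposite sign for ND6. Under quantile normalization ND2, ND5 and ND6 changed sign, to 0.065, 0.10 and 0.79, and under mitochondrial scaling ND1 was at -0.10. The call of ND4 ended without control library 2 or 3 or vitrification I library 1 or 3 (adjusted p = 0.0915 to 0.113), and with no filter, under quantile normalization and under mitochondrial scaling (adjusted p = 0.0800 to 0.221). That of ND4L ended without control library 2 or 3, vitrification I library 1 or 3 or vitrification II library 1, 2 or 3 (adjusted p = 0.0612 to 0.211), and with a pseudocount of 0.1, with no filter, under quantile normalization, under mitochondrial scaling and in fits on the 2 groups compared (adjusted p = 0.0629 to 0.434). Without vitrification I replicate 2 the changes were 1.48 for ND4 (adjusted p = 0.0126), 1.20 for ND4L (adjusted p = 0.0195) and 0.72 for ND1 (adjusted p = 0.185). ND2, ND3, ND5 and ND6 were then at -0.70, -0.75, -0.50 and -0.057. With array weights ND2, ND3 and ND5 were also called, all lower (adjusted p = 0.0175, 0.00487 and 0.0231), and under mitochondrial scaling ND3 was the one member called, lower (adjusted p = 0.0278). Libraries of vitrification I also had fewer genes above 0, 11550.0 to 14039 against 15383 to 16046 in fresh control, and a lower sum of trophectoderm markers, as given above. The part of either was not tested.

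In vitrification II against fresh control the members were lower together, with ND4 down to 0.386 and ND6 to 0.467 of the control mean. Limma called 5 of 7 members, all lower, where 25.7% of all genes were called and 1.09% were called lower. Every vitrification II library lay below every control library for 7 of 7 members, which was so for 3.41% of all genes. The called members were ND4 at -1.34 ± 0.35 (adjusted p = 0.0127), ND3 at -1.24 ± 0.32 (adjusted p = 0.0120), ND6 at -1.11 ± 0.28 (adjusted p = 0.0125), ND4L at -1.06 ± 0.31 (adjusted p = 0.0224) and ND2 at -0.98 ± 0.34 (adjusted p = 0.0473). ND1, at -0.88 ± 0.38 (adjusted p = 0.0979), and ND5, at -0.47 ± 0.29 (adjusted p = 0.248), did not pass. With array weights ND1 and ND5 were also called, both lower (adjusted p = 0.0229 and 0.0117). ND1 was called lower in fits on the 2 groups compared as well (adjusted p = 0.0259). The median of all genes lay 0.62 higher in vitrification II, so that relative to it the 7 changes ran from -1.96 for ND4 to -1.09 for ND5. Under mitochondrial scaling the changes of ND1, ND2, ND3, ND4L, ND5 and ND6 had the opposite sign, 0.43, 0.33, 0.071, 0.25, 0.85 and 0.20 for these in turn, and that of ND4 was -0.024. Quantile normalization, which by construction gives the top ranks the same values in all libraries, left 0 members called (3 at an unadjusted p under 0.05 by limma) and put ND4L at 0.15. The call of ND4 ended without vitrification II library 3 (adjusted p = 0.0523), and with no filter, under quantile normalization and under mitochondrial scaling (adjusted p = 0.138 to 0.947), and that of ND3 without control library 2 or 3 (adjusted p = 0.0548 to 0.0701), and with no filter, under quantile normalization and under mitochondrial scaling (adjusted p = 0.0601 to 0.857). The call of ND6 ended without control library 2 or 3 or vitrification II library 3 (adjusted p = 0.0530 to 0.0583), and under quantile normalization and under mitochondrial scaling (adjusted p = 0.0853 to 0.607). The call of ND4L ended without control library 1, 2 or 3 or vitrification II library 1 or 3 (adjusted p = 0.0577 to 0.0768), and with no filter, under quantile normalization and under mitochondrial scaling (adjusted p = 0.278 to 0.684), and that of ND2 without control library 2 or 3, vitrification I library 1 or 2 or vitrification II library 1, 2 or 3 (adjusted p = 0.0511 to 0.205), and with a pseudocount of 0.1, with no filter, under quantile normalization and under mitochondrial scaling (adjusted p = 0.0601 to 0.460). The sum of trophectoderm markers, 13372 to 21737 FPKM, overlapped that of fresh control. The epiblast markers summed to 35.5 to 87.9 FPKM here and to 8.71 to 11.5 in fresh control, and genes above 0 numbered 15415 to 16204 here. The part of these differences was not tested.

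**Figure D2:**
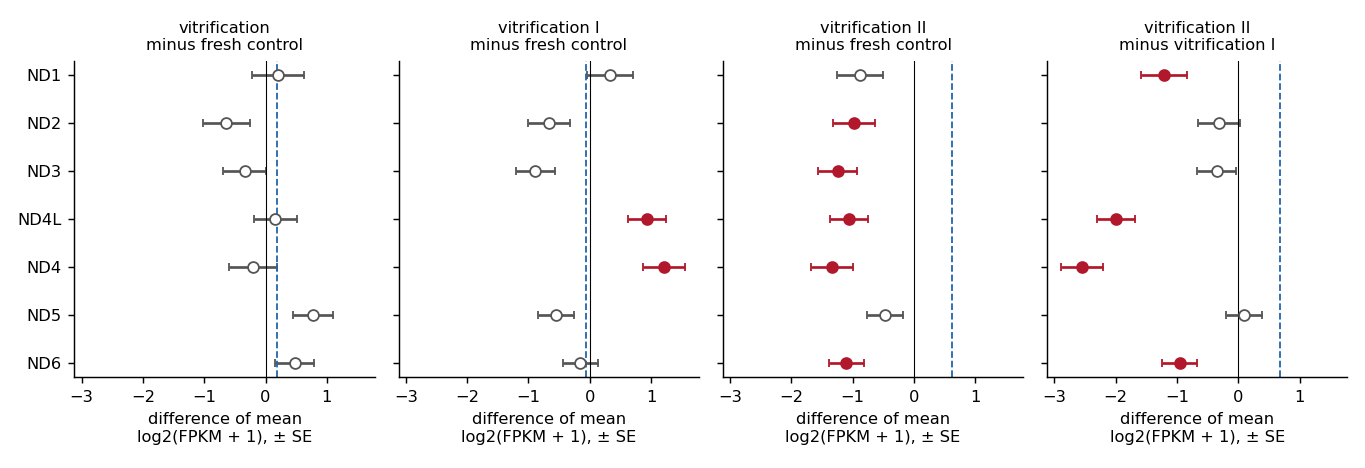
Difference of mean log2(FPKM + 1) ± SE from limma for each member in 4 comparisons; filled red points passed an adjusted p under 0.05, the solid line is 0 and the dashed line the median of all 9411 genes. In vitrification I only ND4L and ND4 passed, at 0.94 and 1.21, while in vitrification II 5 members passed on the lower side; of these, ND2, ND3, ND4L and ND6 have the opposite sign under mitochondrial scaling, and ND4L also under quantile normalization.

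The widest contrast was between vitrification II and vitrification I. ND4 was 6.02 times and ND4L 4.11 times as high in vitrification I, and the log2 changes from there to vitrification II were -2.55 ± 0.35 (adjusted p = 0.000127) and -2.00 ± 0.31 (adjusted p = 0.000306). Both calls held without each library in turn, and that of ND4 under every setting named above. The call of ND4L ended under quantile normalization and under mitochondrial scaling (adjusted p = 0.422 to 0.806). ND1 fell by 1.21 ± 0.38 (adjusted p = 0.0210) and ND6 by 0.95 ± 0.28 (0.0167), but under mitochondrial scaling they were at 0.53 and 0.79. That makes 4 of 7 called, all lower, where 38.4% of all genes were called and 3.75% called lower. ND2, ND3 and ND5 overlapped between the groups, at -0.31 ± 0.34 (adjusted p = 0.493), -0.35 ± 0.32 (adjusted p = 0.395) and 0.089 ± 0.29 (adjusted p = 0.830). The median of all genes was 0.68 higher in vitrification II, and 0.23 under nuclear scaling. Under nuclear scaling ND2 and ND3 were also called (adjusted p = 0.0251 and 0.0330) and ND5 turned to -0.55. Under mitochondrial scaling ND2 and ND3 were instead higher in vitrification II, by 1.43 (adjusted p = 0.00487) and 1.39 (0.00241). In all, 3 members, ND2, ND3 and ND5, were called higher and 1, ND4, lower under that scaling. The call of ND1 ended without vitrification I library 1 or 3 or vitrification II library 1 or 3 (adjusted p = 0.0560 to 0.0897), and with no filter and under mitochondrial scaling (adjusted p = 0.142 to 0.169). That of ND6 ended without vitrification I library 1 or vitrification II library 3 (adjusted p = 0.0719 to 0.0724), and under mitochondrial scaling (adjusted p = 0.0558). Without vitrification I replicate 2 the changes of ND1, ND2, ND3, ND4L, ND4, ND5 and ND6 were -1.60, -0.28, -0.49, -2.26, -2.82, 0.035 and -1.05.

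Against the 2 vitrification libraries, ND4 was higher and ND5 lower in vitrification I, and ND5 and ND6 were lower in vitrification II, where ND5 turned to 0.12 under mitochondrial scaling. In vitrification I the changes were 1.42 ± 0.39 (adjusted p = 0.0440) for ND4 and -1.33 ± 0.33 (adjusted p = 0.0302) for ND5, so 2 of 7 members were called against a background of 5.63%. In vitrification II they were -1.59 ± 0.32 (adjusted p = 0.0185) for ND6 and -1.24 ± 0.33 (adjusted p = 0.0402) for ND5, again 2 of 7, where 5.98% of all genes were called and 0.935% called lower. ND4L, at -1.22 ± 0.35 (adjusted p = 0.0510), just missed the threshold there. The call of ND4 ended without control library 2 or 3, vitrification library 1 or 2, vitrification I library 1 or 3 or vitrification II library 1, 2 or 3 (adjusted p = 0.0572 to 0.207), and with a pseudocount of 0.1, with no filter, under quantile normalization, under mitochondrial scaling and in fits on the 2 groups compared (adjusted p = 0.0561 to 0.201). That of ND5 in vitrification I ended without control library 2, vitrification library 1 or 2 or vitrification I library 1 or 3 (adjusted p = 0.0542 to 0.124), and under quantile normalization and in fits on the 2 groups compared (adjusted p = 0.0899 to 0.151). In vitrification II the ND5 call ended without control library 2 or 3, vitrification library 1 or 2, vitrification I library 1 or vitrification II library 1, 2 or 3 (adjusted p = 0.0545 to 0.150), and with a pseudocount of 0.1, with no filter, under mitochondrial scaling and in fits on the 2 groups compared (adjusted p = 0.0587 to 0.805), and the ND6 call without vitrification library 1 or 2 or vitrification II library 2 or 3 (adjusted p = 0.0563 to 0.0891), and under mitochondrial scaling (adjusted p = 0.626). Without vitrification I replicate 2 the changes of ND1, ND2, ND3, ND4L, ND4, ND5 and ND6 from vitrification to vitrification I were 0.51, -0.061, -0.41, 1.04, 1.69, -1.28 and -0.53. With 2 libraries in the vitrification group, either left out leaves 1, which is then assumed to vary like the other groups.

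The moderated F test of limma, which asks whether any of the 4 groups differed, called 5 of 7 members, where it called 42.7% of all genes. Adjusted p-values were 0.000799 for ND4, 0.00180 for ND4L, 0.00596 for ND6, 0.0163 for ND5 and 0.0229 for ND3. ND1 (0.0607) and ND2 (0.120) did not pass. The call of ND3 ended without control library 2 or 3 or vitrification II library 1, 2 or 3 (adjusted p = 0.0526 to 0.0900), and with no filter and under quantile normalization (adjusted p = 0.0721 to 0.0939). No single library ended the other 4 calls. That of ND4L ended with no filter, under quantile normalization and under mitochondrial scaling (adjusted p = 0.0993 to 0.762), that of ND5 with no filter (adjusted p = 0.0537) and that of ND6 under mitochondrial scaling (adjusted p = 0.107).

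ND4L and ND4 took a larger part, and ND3, ND5 and ND6 a smaller part, of the mitochondrial mRNA in every vitrification I library than in any library of another group. Mitochondrial mRNAs make up so much of each library that every FPKM moves with their total. The make-up inside the 13 mitochondrial mRNAs does not depend on that total and was compared as each gene's share of their summed FPKM. The shares of a library are parts of a fixed whole, so larger shares of some genes lower those of others. The called shares are therefore not separate changes. The exact permutation test over all 4 groups, adjusted over the 13 genes, called 5 of 7 members and 53.8% of the 13 genes. For the fresh controls the share of ND5 was 1.40% ± 0.384, for vitrification 2.31% ± 0.653, for vitrification I 0.702% ± 0.153 and for vitrification II 2.48% ± 0.397 (adjusted exact p = 0.0148). ND3 held 2.32% ± 0.546, 1.76% ± 0.404, 0.912% ± 0.0914 and 2.40% ± 0.378 in the same order (adjusted exact p = 0.0156). ND6 held 1.5% ± 0.0736, 2.07% ± 0.671, 1.01% ± 0.188 and 1.74% ± 0.288 (adjusted exact p = 0.0156). The shares of these 3 were lowest in vitrification I, where no library reached those of another group. In FPKM, ND6 in vitrification I overlapped the controls, with a log2 change of -0.16 (adjusted p = 0.747 by limma). ND4L held 13.3% ± 1.99, 14.2% ± 0.257, 18.7% ± 1.03 and 15.7% ± 1.06 (adjusted exact p = 0.0156), and ND4 6.49% ± 1.65, 5.38% ± 1.05, 11% ± 0.725 and 6.27% ± 0.585 (0.0247). ND4L and ND4 thus held most in vitrification I, and again no library of it overlapped another group. ND2, from 1.00% in vitrification I to 2.66% in vitrification II, missed the threshold (adjusted exact p = 0.0573), as did ND1 (adjusted exact p = 0.268). Without vitrification I replicate 3 the adjusted exact p of the 5 called shares was 0.0543 to 0.0825, so 0 of 7 passed, while 5 had an unadjusted exact p under 0.05. The call of ND4 also ended without vitrification replicate 1 or vitrification I replicate 1 or 2 (adjusted exact p = 0.0575 to 0.0861).

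**Figure D3:**
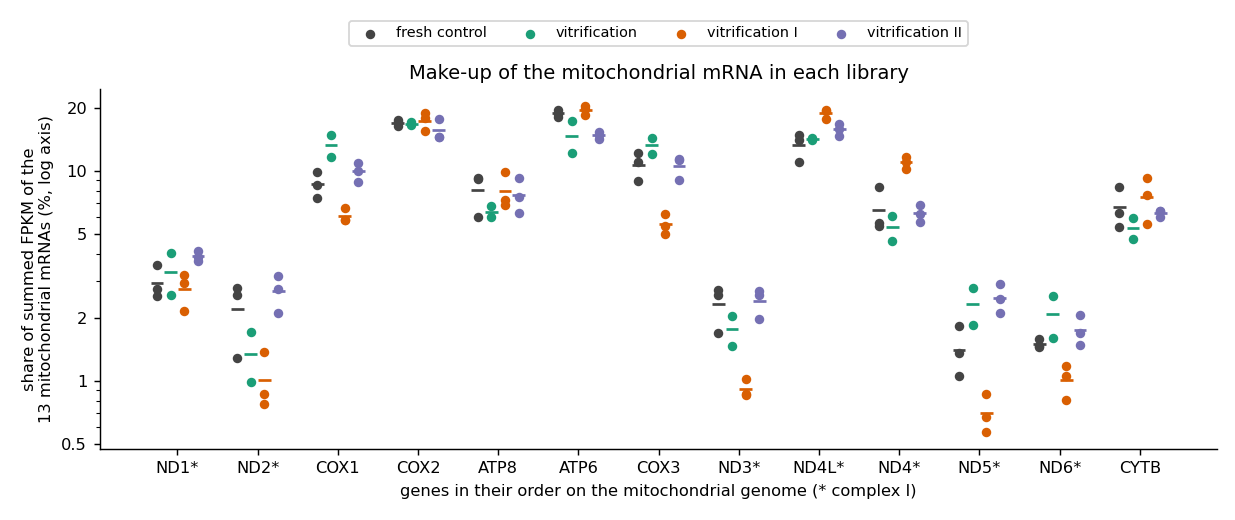
Share of each mitochondrial mRNA in the summed FPKM of all 13 (%, log axis), in genome order, for every library, with lines at group means; stars mark complex I. ND3, ND5, ND6, COX1 and COX3 have their lowest shares in vitrification I (ND5 at 0.702%), where ND4L and ND4 have their highest (18.7% and 11%).

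Together the members held 27.5 to 32.3% of the mitochondrial mRNA FPKM among controls, 30.1 to 30.7% with vitrification, 34.3 to 37.5% with vitrification I and 32.4 to 37.6% with vitrification II. ND4L and ND4 alone supplied 72.0, 60.7 and 63.3% of the members' FPKM in fresh control and 63.2 and 65.7% in vitrification. They supplied 82.3, 80.8 and 83.8% in vitrification I and 60.4, 62.9 and 64.4% in vitrification II. Vitrification I lay above all other libraries in this share. The other 5 members summed to 21915 to 24563 FPKM in fresh control and 14879 to 22514 in vitrification I, which overlapped, and to 10076 to 13281 in vitrification II, below both.

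Ratios between members of 1 library need no scaling between libraries. They were picked after the levels were seen and are given with no test. ND4, which lies just before ND5 with tRNA genes between, exceeded ND5 by 7.97, 4.17 and 3.0 times in fresh control and 1.67 and 3.30 times in vitrification. The ratio was 17.3, 11.7 and 19.5 in vitrification I and 2.38, 2.72 and 2.53 in vitrification II. Vitrification I replicate 2, although lower in both genes, kept a ratio above all libraries of other groups. ND4L over ND4 was 1.77, 1.97 and 2.56 among controls, 3.10 and 2.29 with vitrification, 1.66, 1.72 and 1.76 with vitrification I and 2.30, 2.56 and 2.70 with vitrification II. It varied less than the ratio of ND4 to ND5, and its values in vitrification I were the lowest. ND6 over ND5, neighbours on opposite strands, was 1.38, 1.09 and 0.874 among controls, 0.917 and 0.862 with vitrification, 1.56, 1.36 and 1.42 with vitrification I and 0.709, 0.706 and 0.689 with vitrification II. It was lowest in all vitrification II libraries. Since ND4L and ND3 are short genes, their FPKM depends on how fragment length was corrected for, whose part in these values was not tested.

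**Figure D4:**
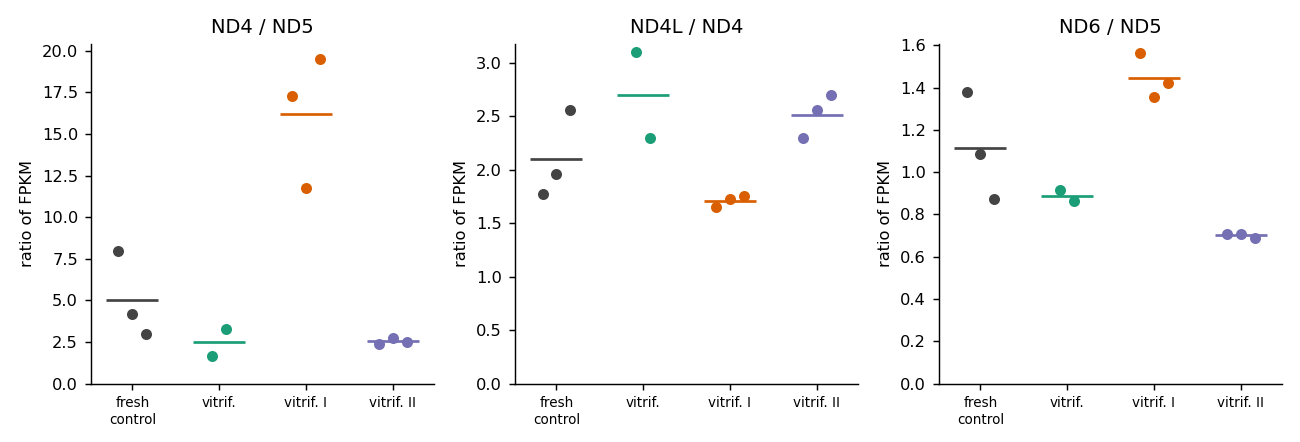
Ratios of FPKM between members within each library, by group, with lines at group means. The ratio of ND4 to ND5 was 11.7 to 19.5 in vitrification I and at most 7.97 elsewhere.

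Across the 11 libraries the members did not follow 1 course. Correlations of log2(FPKM + 1) are given as descriptions, since libraries share groups and each value shares its library's total. ND4 and ND4L had Pearson r = 0.97, and ND1 had 0.86 with ND4. ND5 had -0.13 with ND4 and 0.041 with ND4L, but 0.71 with ND6 and 0.59 with ND3. ND2 was closest to ND3 (0.69). Outside complex I, ND4 had 0.95 with CYTB of complex III and 0.95 with ATP6 of the ATP synthase. ND6 had 0.94 with COX1 and 0.94 with COX3, both of complex IV. ND3 was also near COX3 (0.84).

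Genes whose pattern was most like the mean of the 7 members were sought over the 11 libraries by Pearson r. Outside the members these were COX2 (0.95), ATP6 (0.93), SHD (0.92), ATP8 (0.89) and COX1 (0.89). COX2 and COX1 are complex IV subunits, and ATP6 and ATP8 belong to the ATP synthase. Outside the mitochondrial genome the adaptor SHD was followed by SELENOK (0.88), SELENOS (0.87), DAD1 (0.87) and UFL1 (0.82). SELENOK and SELENOS are selenoproteins of the endoplasmic reticulum membrane, DAD1 is a subunit of the oligosaccharyltransferase and UFL1 is a UFM1 ligase. SELENOK had 189 ± 101 FPKM in fresh control, 259 ± 30.8 in vitrification I and 64.6 ± 10.2 in vitrification II. SHD stood at 5.12 ± 1.84, 6.62 ± 3.45 and 1.41 ± 0.869 in the same order.

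The other 6 mitochondrial mRNAs, of complexes III and IV and the ATP synthase, all fell in vitrification II against fresh control, and under mitochondrial scaling their median was -0.070. Limma called 6 of 6 lower, where 1.09% of all genes were, with a median of -1.38 beside -1.06 for the members and 0.62 for all genes. The named ones were ATP6 at -1.66 ± 0.33 (adjusted p = 0.00336), COX2 at -1.44 ± 0.31 (adjusted p = 0.00478), ATP8 at -1.39 ± 0.32 (adjusted p = 0.00691) and CYTB at -1.38 ± 0.36 (adjusted p = 0.0129). Genes called lower numbered 0 with no filter, under quantile normalization and under mitochondrial scaling. Against vitrification I they were ATP6 at -2.14 ± 0.33 (adjusted p = 0.000298), CYTB at -1.96 ± 0.36 (adjusted p = 0.000819), COX2 at -1.90 ± 0.31 (adjusted p = 0.000382) and ATP8 at -1.80 ± 0.32 (adjusted p = 0.000653) in vitrification II, again 6 of 6 lower, where 3.75% of all genes were. The count of genes called lower was 0 under mitochondrial scaling and 1 under quantile normalization. In vitrification I limma called 0 of 6 against fresh control (0 at an unadjusted p under 0.05), with a median of 0.44, but 2 higher under nuclear scaling and 1 lower under quantile normalization. Whether the members changed more or less than these 6 was not tested beyond the shares given above. In those shares 2 of the 6 passed, COX1 (adjusted exact p = 0.00591) and COX3 (0.0156), with 8.62% ± 1.22 and 10.7% ± 1.65 in fresh control and 6.09% ± 0.458 and 5.57% ± 0.641 in vitrification I. No identifier carried the symbols RNR1 or RNR2 of the mitochondrial rRNAs.

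Most subunits of complex I are encoded in the nucleus. Of 37 listed, 32 had an identifier and all of these passed the filter. In vitrification I against fresh control 4 of 32 fell and 0 rose, where 9.77% of all genes were called lower, a share near that of the list, with a median of -0.52 where all genes were at -0.064. Under nuclear scaling the list median was -0.026, with 0.26 for all genes. NDUFA10, an accessory subunit of the membrane arm, fell by 2.95 ± 0.38 (adjusted p = 0.000341), from 188 ± 59.3 to 23.7 ± 9.38 FPKM. NDUFV1, which binds NADH and the flavin, fell by 1.67 ± 0.38 (adjusted p = 0.00864). The accessory subunits NDUFS6 and NDUFB11 were at -1.94 ± 0.54 (adjusted p = 0.0215) and -1.14 ± 0.31 (adjusted p = 0.0203). NDUFS1, the largest iron-sulfur subunit, was at -0.070 ± 0.38 (adjusted p = 0.920). Called lower were 2 without control library 2 or vitrification I library 1 or 3 and 8 without vitrification I library 2, and 2 under nuclear scaling and in fits on the 2 groups compared and 9 with array weights.

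In vitrification II 2 of 32 nuclear subunits fell against fresh control, NDUFB11 at -1.59 ± 0.31 (adjusted p = 0.00303) and the accessory subunit NDUFS5 at -0.96 ± 0.33 (adjusted p = 0.0455), and 0 rose, while under mitochondrial scaling 8 rose and 0 fell. Of all genes 1.09% were called lower and 24.6% higher in this comparison. The list median was -0.37 where all genes were at 0.62. The number called lower was 1 without control library 1, 2 or 3, vitrification I library 1 or vitrification II library 1, 2 or 3, and 0 under mitochondrial scaling, 1 with no filter, 4 under quantile normalization, 5 under nuclear scaling and in fits on the 2 groups compared and 9 with array weights. NDUFA10 was at -0.037 ± 0.38 (adjusted p = 0.949), NDUFV1 at -0.24 ± 0.38 (adjusted p = 0.653), NDUFS6 at 0.79 ± 0.54 (adjusted p = 0.289) and NDUFS1 at 0.11 ± 0.38 (adjusted p = 0.844). In vitrification 1 of 32 fell and 0 rose, NDUFS6 at -2.55 ± 0.60 (adjusted p = 0.0495), where 0.117% of all genes were called lower, with a median of -0.76 where all genes were at 0.19. Of all 9411 genes, 279 were lower and 1430 higher by an unadjusted limma p under 0.05. In the list 12 of 32 were lower and none higher by it. Genes called lower numbered 0 without control library 1 or 2, vitrification library 1 or 2, vitrification I library 1 or vitrification II library 1, 2 or 3, and 0 with a pseudocount of 0.1, with no filter, under nuclear scaling, under mitochondrial scaling and in fits on the 2 groups compared and 4 with array weights. NDUFA10, NDUFV1 and NDUFS1 were at -1.02 ± 0.42 (adjusted p = 0.205), -0.85 ± 0.43 (adjusted p = 0.312) and -1.17 ± 0.42 (adjusted p = 0.150). Between vitrification II and vitrification I, NDUFA10, NDUFS6 and NDUFV1 were higher in vitrification II by 2.91 ± 0.38 (adjusted p = 9.40e-05), 2.72 ± 0.54 (adjusted p = 0.00141) and 1.43 ± 0.38 (adjusted p = 0.00910). NDUFA1, an accessory membrane subunit, was lower at -0.94 ± 0.33 (adjusted p = 0.0339). That is 3 of 32 higher and 1 lower, where 34.7% of all genes were called higher and 3.75% lower. The count of genes called higher was 31 under mitochondrial scaling. Called lower were 0 without vitrification I library 1 or vitrification II library 1 or 2, and 0 with no filter, under mitochondrial scaling and in fits on the 2 groups compared, 9 under nuclear scaling and 10 under quantile normalization.

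Assembly factors build the complex without being part of it, and 18 of 19 listed genes were kept. In vitrification I 4 of 18 fell and 0 rose against fresh control, where 9.77% of all genes were called lower, with a median of -0.29, which was 0.11 under nuclear scaling. They were DMAC2 at -1.54 ± 0.40 (adjusted p = 0.0160), FOXRED1 at -1.48 ± 0.41 (adjusted p = 0.0222), ECSIT at -1.32 ± 0.37 (adjusted p = 0.0218) and ACAD9 at -1.08 ± 0.36 (adjusted p = 0.0470). ACAD9 and ECSIT belong to the complex that builds the part around ND2, FOXRED1 acts in later steps, and DMAC2 acts on the far membrane arm, all from work in human cells. The number called lower was 0 without control library 3, 1 without vitrification I library 1 or 3 and 2 without control library 1 or 2, and 0 with no filter, 1 under nuclear scaling and 2 in fits on the 2 groups compared. In vitrification II 2 of 18 rose and 0 fell against fresh control, DMAC2 at 1.34 ± 0.40 (adjusted p = 0.0248) and TIMMDC1 at 1.15 ± 0.37 (adjusted p = 0.0345), while under quantile normalization 2 fell. TIMMDC1 takes part in building the ND1 module in human cells. Of all genes 24.6% were called higher, a larger share than in the list, and the list median of 0.40 was below that of all genes. Genes called higher numbered 0 without control library 2 or 3 or vitrification II library 1 or 2, 1 without vitrification II library 3 and 4 without control library 1, and 0 with no filter, under nuclear scaling and under quantile normalization, 1 with a pseudocount of 0.1, 7 with array weights and 15 under mitochondrial scaling. Between vitrification II and vitrification I 8 of 18 were higher in vitrification II and 0 lower, where 34.7% of all genes were called higher, among them DMAC2 at 2.88 ± 0.40 (adjusted p = 0.000142), ACAD9 at 1.74 ± 0.36 (adjusted p = 0.00179), FOXRED1 at 1.66 ± 0.41 (adjusted p = 0.00600) and NDUFAF8 at 1.19 ± 0.45 (adjusted p = 0.0482). The count of genes called higher was 3 without vitrification I library 1 or vitrification II library 2, 4 without vitrification I library 3 and 5 without vitrification II library 1 or 3, and 1 under quantile normalization, 2 under nuclear scaling and 18 under mitochondrial scaling. In vitrification 0 of 18 were called by limma against fresh control, where 1 was lower and none higher by an unadjusted p under 0.05.

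**Figure D5:**
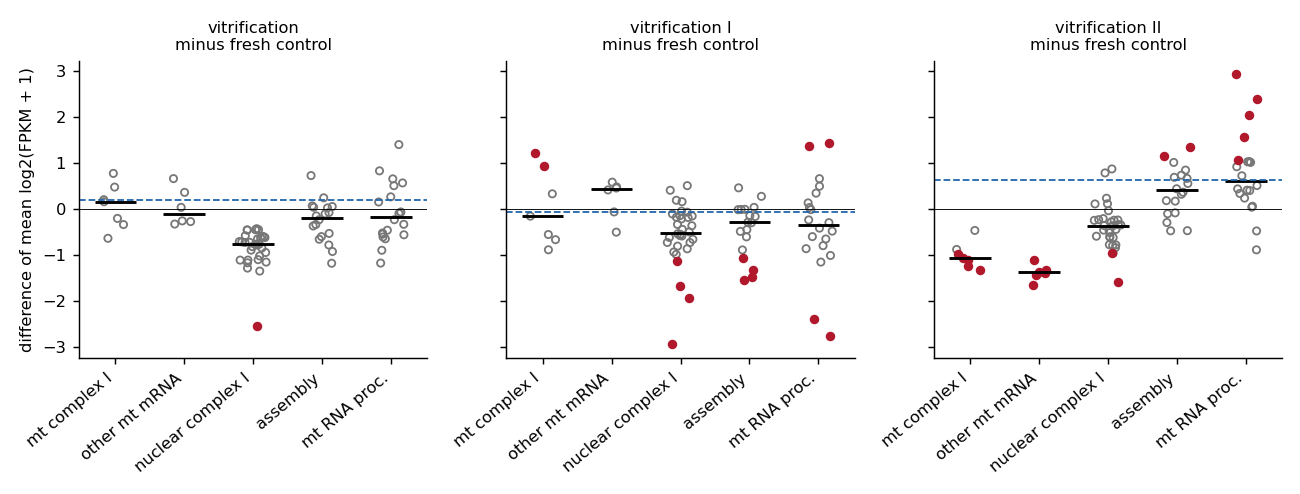
Difference of mean log2(FPKM + 1) from fresh control for each gene of 5 lists in the 3 vitrified groups; red points were called by limma, short lines are list medians and the dashed line is the median of all genes. In vitrification II the mitochondrial mRNAs lie below 0 (median -1.06 for complex I, a direction that turns for 6 of them under mitochondrial scaling and for ND4L under quantile normalization), while the mitochondrial RNA processing list has a median of 0.62, that of all genes being 0.62.

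Mitochondrial RNA is cut, stabilised and degraded by proteins from the nucleus, of which 20 of 20 listed genes were kept. In vitrification II 5 of 20 rose and 0 fell against fresh control, about the share of all genes called higher, 24.6%, with a median of 0.62 beside 0.62 for all genes. Under quantile normalization the list median was -0.19. LRPPRC, which stabilises mitochondrial mRNAs in human and mouse cells, rose by 2.93 ± 0.32 (adjusted p = 0.000165), from 3.6 ± 0.852 to 33.8 ± 1.81 FPKM. SLIRP, its partner, was at 0.24 ± 0.42 (adjusted p = 0.695). PNPT1, a nuclease that degrades mitochondrial RNA in human cells, rose by 2.40 ± 0.43 (adjusted p = 0.00185). FASTKD5, which acts in human cells on mRNA ends without a flanking tRNA, rose by 2.04 ± 0.40 (adjusted p = 0.00308), and PTCD1 by 1.57 ± 0.43 (adjusted p = 0.0165). Called higher were 3 without control library 2 or vitrification II library 3, and 2 under quantile normalization, 3 with a pseudocount of 0.1 and with no filter, 8 with array weights and 16 under mitochondrial scaling. The number called lower was 1 under nuclear scaling, with array weights and in fits on the 2 groups compared.

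In vitrification I 2 of these 20 rose against fresh control, LRPPRC at 1.44 ± 0.32 (adjusted p = 0.00764) and PNPT1 at 1.36 ± 0.43 (adjusted p = 0.0402), and 2 fell, where 8.85% of all genes were called higher and 9.77% lower, with a median of -0.36. TBRG4, which bears on the levels of several mitochondrial mRNAs in human cells, fell by 2.78 ± 0.40 (adjusted p = 0.000675). FASTK, which ND6 mRNA needs in human and mouse cells, was at -2.40 ± 0.45 (adjusted p = 0.00312) and went from 7.91 ± 1.82 to 0.718 ± 0.508 FPKM. SLIRP was at 0.032 ± 0.42 (adjusted p = 0.969). Genes called higher numbered 1 without control library 2 or 3, vitrification I library 1, 2 or 3 or vitrification II library 1 or 2, and 0 under mitochondrial scaling and 1 with no filter and in fits on the 2 groups compared. The count of genes called lower was 5 with array weights. Between vitrification II and vitrification I 10 of 20 were higher in vitrification II and 0 lower, where 34.7% of all genes were called higher, among them TBRG4 at 3.79 ± 0.40 (adjusted p = 3.01e-05), FASTKD3 at 1.93 ± 0.39 (adjusted p = 0.00159), FASTK at 1.92 ± 0.45 (adjusted p = 0.00452) and FASTKD5 at 1.91 ± 0.40 (adjusted p = 0.00220). Called higher were 3 under quantile normalization, 5 under nuclear scaling and 20 under mitochondrial scaling. The number called lower was 1 under quantile normalization. In vitrification 0 of 20 were called by limma against fresh control, where 1 was higher and 2 lower by an unadjusted p under 0.05. LRPPRC was at 1.40 ± 0.36 (adjusted p = 0.0588) and SLIRP at -0.067 ± 0.47 (adjusted p = 0.963) there. Genes called higher numbered 1 without vitrification I library 3, and 1 with no filter and with array weights. The count of genes called lower was 1 under quantile normalization.

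The transcription and replication list had 15 of 16 genes kept. TFAM, which packs mitochondrial DNA and starts its transcription, was at 0.52 ± 0.49 (adjusted p = 0.628) with vitrification, 0.089 ± 0.44 (adjusted p = 0.913) with vitrification I and 1.00 ± 0.44 (adjusted p = 0.103) with vitrification II against fresh control. POLRMT, the mitochondrial RNA polymerase, was at 0.55 ± 0.44 (adjusted p = 0.543), -0.28 ± 0.39 (adjusted p = 0.655) and 0.95 ± 0.39 (adjusted p = 0.0827), from a low level of 1.51 ± 0.816 FPKM in fresh control. In vitrification II 2 of 15 rose and 0 fell, a smaller share than the 24.6% of all genes called higher, TFB2M at 1.22 ± 0.38 (adjusted p = 0.0296) and MTERF3 at 1.06 ± 0.37 (adjusted p = 0.0462). POLRMT needs TFB2M to open the promoter, and MTERF3 lowers mitochondrial transcription in mouse. Called higher were 0 without control library 2 or 3 or vitrification II library 1, 2 or 3, 1 without vitrification library 1 or 2 and 5 without control library 1 or vitrification I library 3, and 0 with no filter, under nuclear scaling and under quantile normalization, 1 with a pseudocount of 0.1, 5 in fits on the 2 groups compared, 8 with array weights and 12 under mitochondrial scaling. In vitrification I 1 of 15 fell and 0 rose, where 9.77% of all genes were called lower, MRPL12, a mitochondrial ribosomal protein, at -3.29 ± 0.47 (adjusted p = 0.000695). The number called higher was 2 with array weights. Between vitrification II and vitrification I 5 of 15 were higher in vitrification II and 0 lower, where 34.7% of all genes were called higher, among them MRPL12 at 2.94 ± 0.47 (adjusted p = 0.000384), TFB2M at 1.59 ± 0.38 (adjusted p = 0.00480), TWNK at 1.33 ± 0.39 (adjusted p = 0.0153) and POLRMT at 1.24 ± 0.39 (adjusted p = 0.0215). TWNK is the helicase of mitochondrial DNA replication. Genes called higher numbered 3 without vitrification I library 3 or vitrification II library 1, and 1 under nuclear scaling and under quantile normalization, 3 with no filter and 13 under mitochondrial scaling. The count of genes called lower was 1 under nuclear scaling and under quantile normalization. In vitrification 0 of 15 were called by limma, where 1 was higher and none lower by an unadjusted p under 0.05. The list medians were -0.20, 0.012 and 0.95 with vitrification, vitrification I and vitrification II, beside 0.19, -0.064 and 0.62 for all genes.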

How the data were processed

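The deposited table holds FPKM made by the authors, 1 column for each of 11 libraries, with no counts, so the depth of each library is unknown. Per the submitters' processing notes, the tools were TopHat2 2.0.13, Cufflinks 2.2.1, FastQC and DESeq2, whose roles are not given. The genome build and the annotation are not given in the sources used here. Symbols came from an Ensembl identifier table, which matched 15347 of 31781 identifiers. The order of genes on the mitochondrial genome came from the RefSeq annotation of Sscrofa11.1 and was used for neighbours only. Of the 12 labelled samples 11 entered, and vitrification replicate 3 had no column in that table. No column was left unmapped and 0 pairs of libraries were identical.

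Values were analysed as log2(FPKM + 1) for 9411 genes with at least 1 FPKM in at least 3 libraries. limma 3.58.1 (R 4.3.3) was fitted with 1 mean per group and a mean-dependent prior, and tested on simulated data. Shares were tested in Python 3.11.15 by exact permutation over 92400 arrangements of the libraries. Alternatives were a pseudocount of 0.1, no filter, 3 other scalings, array weights, a replicate block, fits on the 2 groups compared and leaving out each library. All 7 members were described. Other genes were named by a rule: up to 4 called genes per list and comparison with the largest change, 8 fixed genes, and the 5 genes with the most similar pattern. The lists were not described against the 2 vitrification libraries. The members and lists were chosen with earlier results of these data known.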

Additional observations from a re-analysis of the deposited data

How the results depend on the processing

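The numbers of members called were 0 in vitrification against fresh control, 2 in vitrification I against fresh control, 5 in vitrification II against fresh control, 2 in vitrification I against vitrification, 2 in vitrification II against vitrification, 4 in vitrification II against vitrification I and 5 in any of the 4 groups, and 5 shares were called. With a pseudocount of 0.1 limma called 1 in vitrification I against fresh control, 1 in vitrification I against vitrification and 1 in vitrification II against vitrification. Without a filter limma called 0 in vitrification I against fresh control (2 at an unadjusted p under 0.05), 1 in vitrification II against fresh control, 1 in vitrification I against vitrification, 1 in vitrification II against vitrification and 2 in any of the 4 groups. After quantile normalization limma called 0 in vitrification I against fresh control (3 at an unadjusted p under 0.05), 0 in vitrification II against fresh control (3 at an unadjusted p under 0.05) and 0 in vitrification I against vitrification (2 at an unadjusted p under 0.05). Under mitochondrial scaling limma called 1 in vitrification I against fresh control, 0 in vitrification II against fresh control (1 at an unadjusted p under 0.05), 1 in vitrification I against vitrification and 0 in vitrification II against vitrification (1 at an unadjusted p under 0.05). In vitrification II against vitrification I it then called 4, of which 3 were higher and 1 lower, where the main fit had 4 lower. With array weights limma called 5 in vitrification I against fresh control, 2 higher and 3 lower. It then called 7 in vitrification II against fresh control, all lower, 3 in vitrification II against vitrification and 7 in any of the 4 groups. Nuclear scaling gave 7 called in any of the 4 groups, 6 in vitrification II against vitrification I and 3 in vitrification II against vitrification. With the replicate block limma called 1 in vitrification I against fresh control, 3 in vitrification II against fresh control, 0 in vitrification I against vitrification (2 at an unadjusted p under 0.05) and 1 in vitrification II against vitrification. Against fresh control it ended the calls of ND4L in vitrification I (adjusted p = 0.0985) and of ND2 and ND4L in vitrification II (0.0763 and 0.0511). Against vitrification it ended those of ND4 and ND5 in vitrification I (0.0925 and 0.0741) and of ND5 in vitrification II (0.0720). In fits on the 2 groups compared limma called 1 in vitrification I against fresh control, 6 in vitrification II against fresh control, 0 in vitrification I against vitrification (2 at an unadjusted p under 0.05) and 1 in vitrification II against vitrification. Leaving out 1 library at a time gave 0 throughout in vitrification against fresh control, 0 to 3 in vitrification I against fresh control, 1 to 5 in vitrification II against fresh control, 0 to 2 in vitrification I against vitrification, 0 to 3 in vitrification II against vitrification, 2 to 4 in vitrification II against vitrification I, 4 to 6 in any of the 4 groups and 0 to 6 shares. Under nuclear scaling these log2 changes turned sign, ND4 to 0.058 in vitrification against fresh control, ND6 to 0.34 in vitrification I against fresh control, ND2 to 0.20 in vitrification I against vitrification and ND5 to -0.55 in vitrification II against vitrification I. With array weights these log2 changes turned sign, ND4 to 0.025 in vitrification against fresh control. Under mitochondrial scaling these log2 changes turned sign, ND1 to -0.10 in vitrification I against fresh control, ND1 to 0.43, ND2 to 0.33, ND3 to 0.071, ND4L to 0.25, ND5 to 0.85 and ND6 to 0.20 in vitrification II against fresh control, ND1 to -0.25 in vitrification I against vitrification, ND1 to 0.28, ND2 to 1.02, ND3 to 0.46, ND4 to 0.23, ND4L to 0.14 and ND5 to 0.12 in vitrification II against vitrification and ND1 to 0.53, ND2 to 1.43, ND3 to 1.39 and ND6 to 0.79 in vitrification II against vitrification I. After quantile normalization these log2 changes turned sign, ND2 to 0.065, ND5 to 0.10 and ND6 to 0.79 in vitrification I against fresh control, ND4L to 0.15 in vitrification II against fresh control, ND2 to 0.40 and ND6 to 0.12 in vitrification I against vitrification, ND4L to 0.042 in vitrification II against vitrification and ND5 to -0.31 in vitrification II against vitrification I. With the replicate block these log2 changes turned sign, ND2 to 0.019 in vitrification I against vitrification. Leaving out 1 library turned 6 changes that were not called, with ranges for ND1 in vitrification against fresh control -0.31 to 0.71, ND3 in vitrification against fresh control -0.76 to 0.082, ND4 in vitrification against fresh control -0.59 to 0.18, ND4L in vitrification against fresh control -0.0082 to 0.32, ND1 in vitrification I against vitrification -0.38 to 0.64 and ND2 in vitrification I against vitrification -0.24 to 0.18. Deviations from the group means correlated at -0.16 to 0.14 in the 15 pairs with the same replicate number and at -0.14 to 0.16 in the 30 pairs with different numbers. Of 11 libraries 3 correlated best with their own number. Deviations within a group cancel out, so the values of both kinds of pairs are tied to each other. Their mean r was -0.019 with the same number and 0.0090 with different numbers. Libraries with the same number were thus on average no more alike, and whether the replicate numbers pair the libraries was not tested further. Mitochondrial scaling by construction removes changes of the mitochondrial mRNAs as a whole. Quantile normalization gives each rank the same value in all libraries, and after it 4 members were called lower in vitrification II against vitrification I. They were not the same 4 as in the main fit. Those of ND1, ND4 and ND6 held, and that of ND4L ended (adjusted p = 0.806 by limma). Why the other results differed between settings was not tested. The call of ND4 between vitrification II and vitrification I held under all settings and without each library. Shares of the members' sum, or of a total that leaves out the short genes ND3, ND4L and ATP8, gave 5 called each. With no counts, the precision that depth gives is unknown.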
